A study of Mus musculus with 4 samples.

Results

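The AP-1 family genes described here were Jun, Junb, Jund, Fos, Fosb, Fosl1, Fosl2, Batf and Atf3, which are 9 of the 22350 protein-coding genes of the mouse annotation used (GENCODE vM1, genome build mm9). They were chosen by name, and all 9 symbols were found in the annotation. A region of accessible chromatin was assigned to a gene when it lay over the gene body or within 20 kb on either side of it. By this rule 22 of the 19648 regions of vehicle-treated cells, 29 of the 38532 regions of TGFβ-treated cells and 31 of the 26732 regions of a 10 min experiment belonged to AP-1 loci. No region was counted for more than 1 of these genes.

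Accessibility was measured by ATAC-seq, in which the Tn5 transposase places sequencing adapters in open DNA, in NMuMG cells, an established epithelial line from normal mouse mammary gland. In complete medium, which holds serum and insulin, cells received TGFβ1 at 5 ng/ml or its vehicle for 2 h, and each condition gave 1 list of peaks. In a separate experiment cells first spent 6 h without serum and insulin, after which TGFβ1 at 5 ng/ml or vehicle was added for 10 min. A single list, named after the TGFβ treatment of 10 min, is given in the labels of both the vehicle and the TGFβ sample. It is called the 10 min list here and is not given to a condition. Medium and time differ together between the 10 min list and the other lists and cannot be told apart. All samples were cells of 1 line, and the labels name no genetic change in any of them. As the assay was made on bulk cells, more cells with an open site and a more open site in each cell cannot be told apart.

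AP-1 is a dimeric transcription factor built from basic leucine zipper proteins of the Jun, Fos, ATF and BATF groups. Jun proteins can pair with each other or with a Fos protein, whereas Fos proteins need a Jun partner, and the dimers bind the sequence TGACTCA or, for some pairs, the cAMP response element (CRE) TGACGTCA. Several of the genes are immediate-early genes, switched on within minutes of a growth factor or stress signal through serum response factor at CArG boxes and through ATF/CREB proteins, and AP-1 is a partner of SMAD proteins in TGFβ responses of epithelial cells.

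Epithelial identity was checked on 9 epithelial markers and 8 markers of other cells. The keratin genes Krt8 and Krt18 and the epithelial regulators Elf3 and Grhl2 had a region at a transcription start site (TSS) in every list. These were 4 of 9 epithelial markers (44.4%, 95% Wilson interval 18.9 to 73.3) in the vehicle list, and with TGFβ and at 10 min 5 of 9 had one (55.6%, 26.7 to 81.1), which is near the shares over all genes given below. Cdh1 (E-cadherin) had one in the 10 min list alone and Cldn4 in the TGFβ list alone, and Epcam, Cldn3 and Esrp1 had none. None of the 8 markers of other cells had a TSS region in any list (95% Wilson upper bound 32.4%). The lists hold no read counts. Read totals that accompany the study, not used as data here, are larger for the vehicle library than for the TGFβ library of complete medium. Each condition had 1 list, which allows no test between conditions and no p-value, and the intervals below cover the counting of regions alone.

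Most AP-1 genes had accessible chromatin at their start whether or not TGFβ was given. A region within 1000 bp of an annotated TSS was called in the vehicle list for 7 of the 9 genes (77.8%, 95% Wilson interval 45.3 to 93.7), against 41.0% of all protein-coding genes. The genes without one were Junb and Batf. In the TGFβ list 8 of 9 genes had a TSS region (88.9%, 56.5 to 98.0), against 47.6% of all genes, and in the 10 min list the same 8 genes had one, against 46.3% of all genes. Junb was thus the gene whose call differed between the lists, and Batf was the gene with no TSS region in any of them. All lower bounds stood above the shares over all genes. The high share was not particular to AP-1 genes. Of 22 other basic leucine zipper genes, 81.8% had a TSS region in each list. Among 15 genes of upstream kinases and of serum response factor and its partners the shares were 86.7%, 93.3% and 93.3%.

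A stricter count asked whether the start base itself lay inside a deposited interval. This held for 5 of 9 genes in the vehicle list (55.6%, 26.7 to 81.1), against 37.6% of all genes, for 7 of 9 in the TGFβ list (77.8%, 45.3 to 93.7), against 43.2%, and for 7 of 9 in the 10 min list, against 43.5%. The starts of Jun, Jund, Fos, Fosl1 and Atf3 were covered in every list. Those of Junb and Fosb were covered in the TGFβ and 10 min lists and not in the vehicle list, and those of Fosl2 and Batf in none. For Jund the covered start was the second annotated one, 1219 bp downstream of the first.

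**Figure D1:**
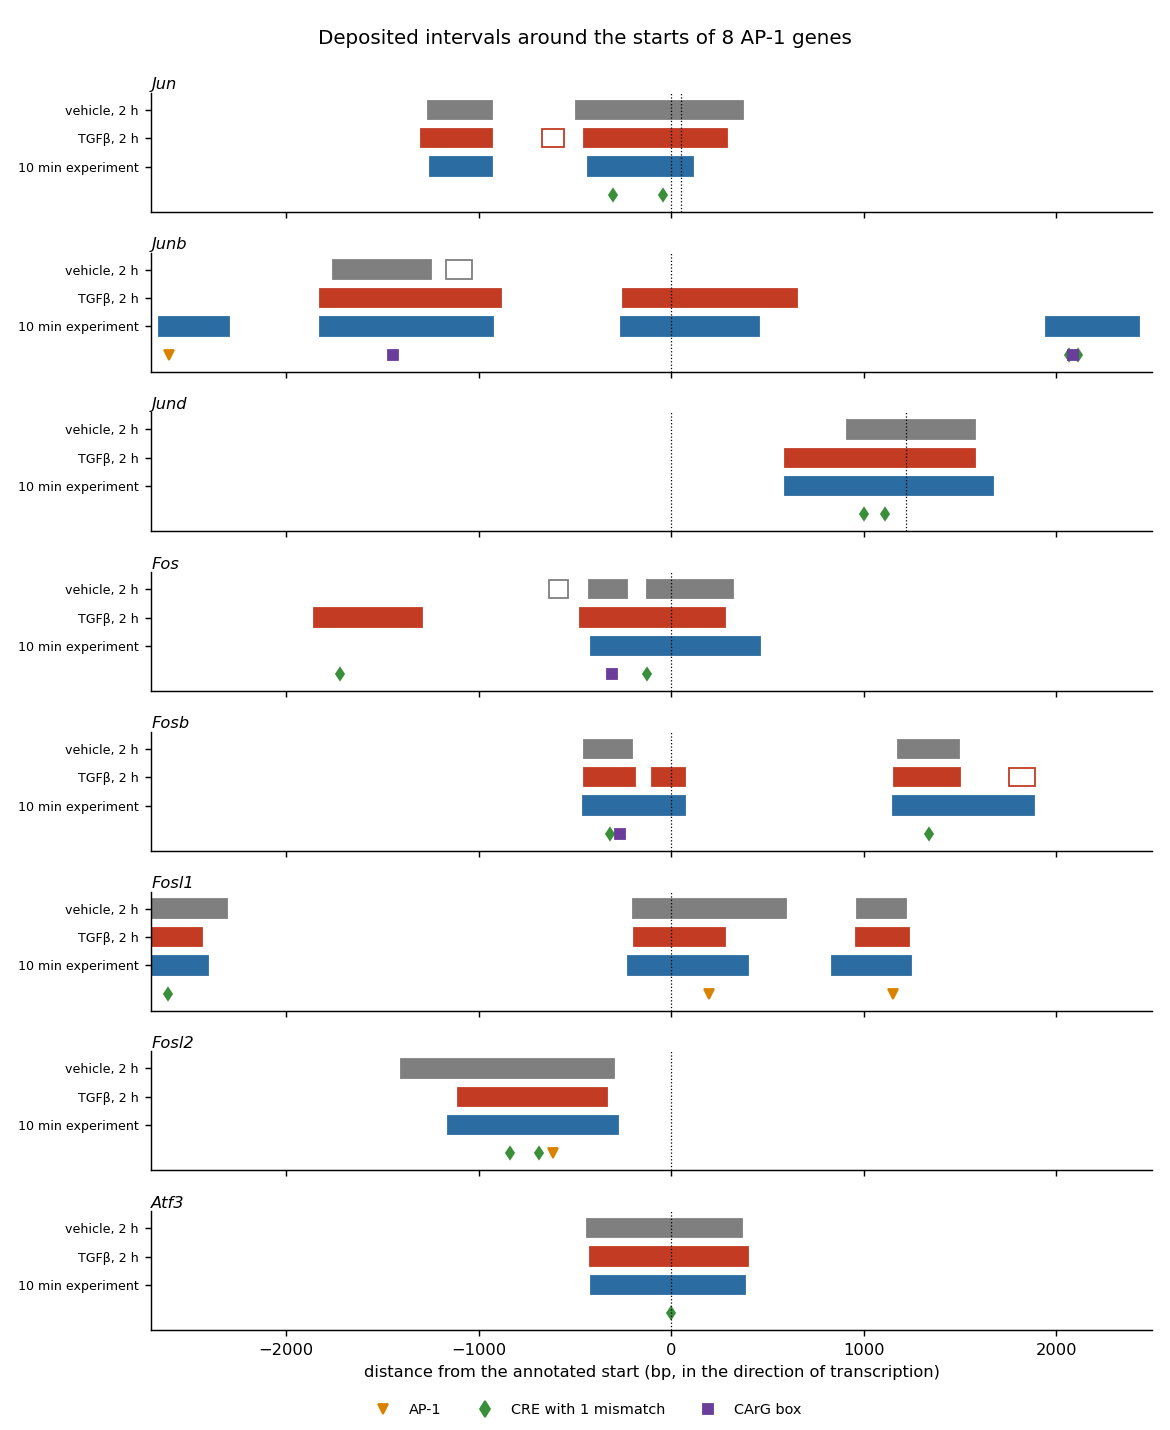
Deposited intervals around the annotated starts of the 8 AP-1 genes with a TSS region in any list, against the distance from the start in bp in the direction of transcription. Filled bars are intervals of at least 150 bp in the vehicle (grey), TGFβ (red) and 10 min (blue) lists, open bars are narrower intervals left out of the regions, dotted lines mark annotated coding starts, and the symbols mark sequence matches inside the regions. The start of Junb has no grey bar, while red and blue bars cross it.

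Jun, the founding Jun protein gene and a subunit of most AP-1 dimers, lies on the minus strand at chr4:94715725-94718913. Its start was covered in every list by 1 wide region, which also holds the start of the divergent gene BC042782. The region measured 1640 bp with vehicle, 1588 bp with TGFβ and 1365 bp at 10 min, and its score was at the cap of 1000 in each. The score is the authors' scaled measure of how well peaks agree between replicates. As the labels give 1 sample per condition, agreement between biological replicates is not established for these lists. In every list the region was built from an interval over the start and an upstream interval with its near edge at position -929 (positions are counted from 0 at the annotated start, negative upstream). The window of 2001 bp around the start had 1375 bp covered by the region in the vehicle list, 1290 bp with TGFβ and 1113 bp in the 10 min list. As a region includes the gaps between its intervals, the bases inside intervals were fewer, at 941, 814 and 617. The start of Jun was therefore no wider with TGFβ than without it. A CRE with 1 mismatch lay at -45 to -38, inside the region in every list, and is shown in capitals on the strand of the gene from mm9:
Jun, chr4:94718921-94718988, minus strand: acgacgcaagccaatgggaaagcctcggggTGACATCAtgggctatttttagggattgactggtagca

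Junb encodes a Jun protein that is also an immediate-early product and a classical TGFβ target. It lies on the minus strand at chr8:87500811-87502617 and was the member whose start differed most between the lists. In the vehicle list the nearest retained interval spanned -1755 to -1247, a narrower one of 135 bp at -1167 to -1033 fell under the minimum width, and none of the 2001 bp around the start was covered. In the TGFβ list an interval from -251 to 652 crossed the start and another spanned -1826 to -886. In the 10 min list intervals at -261 to 454, -1825 to -928 and -2660 to -2296 were merged into 1 region. The covered part of the window was 0 bp, 1653 bp and 1455 bp in the vehicle, TGFβ and 10 min lists, of which 0, 1019 and 789 bp lay inside intervals. By either count the TGFβ value was the highest of any member start in any list. The scores behind it were low within their list. At 575, the region had a score that 5.05% of TGFβ regions did not exceed, and the 10 min region, at 765, stood at 42.8% of its list. When peaks below the median score of each list were left out, Junb had no TSS region in any list. The bases just before the start, inside an interval with TGFβ and at 10 min and outside all vehicle intervals, are shown with no letters marked:
Junb, chr8:87502618-87502767, minus strand: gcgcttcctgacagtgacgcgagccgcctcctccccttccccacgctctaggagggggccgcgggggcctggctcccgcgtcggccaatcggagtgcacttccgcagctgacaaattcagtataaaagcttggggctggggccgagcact

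Jund encodes the Jun protein that most resting cells express, and lies on the plus strand at chr8:73221638-73224515. Its region had a score of 1000 in every list and sat over the second coding start rather than the first. It spanned 916 to 1577 with vehicle, 594 to 1578 with TGFβ and 593 to 1672 at 10 min, so the downstream edge was nearly the same with and without TGFβ while the upstream edge lay farther out with TGFβ. The part of the window around the first start that was covered was 85 bp, 407 bp and 408 bp. The gene Gm11175 starts under the same region. An exact CRE lay at 996 to 1003, in exon sequence annotated as untranslated and upstream of the second start:
Jund, chr8:73222623-73222652, plus strand: ccccacccccaTGACGTCAacccacaatgc

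Fos, the textbook immediate-early gene, lies on the plus strand at chr12:86814840-86818223, and its start was called in every list. The region measured 746 bp with vehicle, 2134 bp with TGFβ and 876 bp at 10 min. The greater TGFβ width came from an additional interval at -1854 to -1297, with a score of 690, that had no counterpart in the other lists. That interval lies outside the window around the start. The window had 746 bp covered with vehicle, 1280 bp with TGFβ and 876 bp at 10 min, and inside intervals 642 bp, 751 bp and 876 bp, so the larger TGFβ cover lay mostly in the gap between the joined intervals. Over the start itself the intervals were alike, spanning -125 to 318, -471 to 279 and -415 to 460, and the vehicle list had a further interval at -427 to -230. Scores of 846, 886 and 971 placed the region at 44.9%, 47.0% and 67.5% of its list, so the start of Fos was not among the top-scoring regions in complete medium. With peaks below the median score left out, Fos lost its call in the vehicle and TGFβ lists.

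Fosb encodes a Fos protein induced along with Fos, and lies on the minus strand at chr7:19888070-19895394. In the vehicle list a single interval at -453 to -205 lay upstream of the start. The TGFβ list had the same interval at -452 to -190 and a further one at -101 to 69, which crossed the start with a score of 860. In the 10 min list 1 interval ran from -457 to 73. Covered bases around the start were 249, 522 and 531, and 434 of the 522 lay inside the intervals. The Fosb call was not firm against the settings, since it was lost in the vehicle and TGFβ lists at a minimum width of 300 bp and in the vehicle list with a TSS window of 200 bp. The bases before the start that the additional interval covers with TGFβ are shown with no letters marked:
Fosb, chr7:19895395-19895495, minus strand: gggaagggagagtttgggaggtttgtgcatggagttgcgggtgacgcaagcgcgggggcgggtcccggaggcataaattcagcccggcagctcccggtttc

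Fosl1 and Fosl2 encode the Fos-related antigens Fra-1 and Fra-2. Fosl1, which is linked to invasive and mesenchymal states of epithelial cells, lies on the plus strand at chr19:5447703-5455945. In every list its start region joined an interval over the promoter with an interval in the first part of the gene, at 963 to 1221 in the vehicle list, 961 to 1234 with TGFβ and 834 to 1245 at 10 min. The covered part of the window was 1199 bp, 1194 bp and 1226 bp. Inside intervals it was 834 bp, 512 bp and 793 bp, since the promoter interval ended at 278 with TGFβ, at 597 with vehicle and at 400 at 10 min. The intragenic interval held an AP-1 match at 1152 to 1158 in an intron of Fosl1, shown because it was open in every list:
Fosl1, chr19:5448808-5448908, plus strand: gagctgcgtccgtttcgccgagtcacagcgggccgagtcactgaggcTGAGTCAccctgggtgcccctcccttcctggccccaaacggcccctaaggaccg

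Fosl2 lies on the plus strand at chr5:32438845-32460204. A region with a score of 1000 was called in each list, yet it ended upstream of the annotated start, at -299, -334 and -276 in the vehicle, TGFβ and 10 min lists. The widths were 1107 bp, 773 bp and 884 bp, the vehicle region being the widest. No other region was called within 20 kb of Fosl2 in any list. Since the region stops short of the start, the call was lost in all lists with a TSS window of 200 bp. The region held an AP-1 match at -618 to -612:
Fosl2, chr5:32438180-32438280, plus strand: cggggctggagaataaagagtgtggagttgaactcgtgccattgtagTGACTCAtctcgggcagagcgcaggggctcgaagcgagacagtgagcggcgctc

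Atf3, a stress-induced member of the ATF/CREB group, lies on the minus strand at chr1:192994175-193007219. Its start region had a score of 1000 in every list and nearly the same extent, with 804 bp, 816 bp and 801 bp of the window covered. A CRE with 1 mismatch lay across the start, at -3 to 4:
Atf3, chr1:193007204-193007233, minus strand: tattaatagcaTTACGTCAgcctgggattg

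Batf, known mainly from lymphocytes, lies on the plus strand at chr12:87027619-87050037. It had no TSS region in any list and no region at all within 20 kb in the vehicle list. A single region in an intron, centred at 11.7 kb, was called with TGFβ (248 bp, score 574) and at 10 min (434 bp, score 750). It held none of the AP-1, CRE or CArG box sequences.

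Seen over the 9 starts, the covered part of the window was larger with TGFβ than with vehicle for Junb, Jund, Fos and Fosb, barely so for Atf3, and smaller for Jun, Fosl1 and Fosl2. Among genes with any cover, the median was 746 bp over 7 members and 580 bp over all genes in the vehicle list. With TGFβ it was 1005 bp over 8 members and 643 bp over all genes, and in the 10 min list 838 bp and 790 bp. Counted inside intervals alone, the medians were 702 bp against 559 bp, 709 bp against 598 bp and 757 bp against 768 bp in the vehicle, TGFβ and 10 min lists, and the direction between TGFβ and vehicle was the same for each of the 9 genes.

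**Figure D2:**
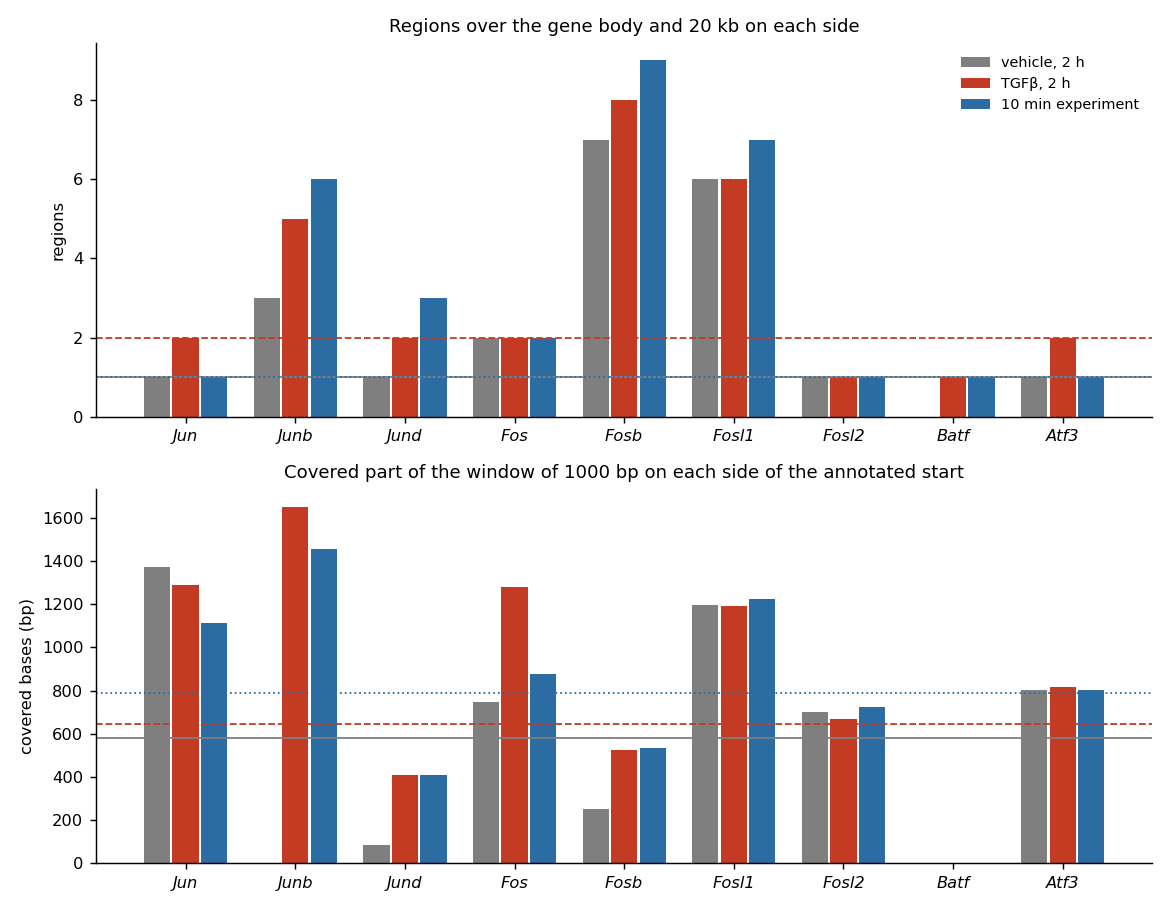
Number of regions over the gene body and 20 kb on each side (top) and covered bases of the 2001 bp window around the annotated start (bottom) for each AP-1 gene in the vehicle (grey), TGFβ (red) and 10 min (blue) lists. Horizontal lines give the median over all protein-coding genes in the upper panel and over all genes with any cover in the lower panel, solid for vehicle, dashed for TGFβ and dotted for 10 min. Fosb has the most regions (7, 8 and 9), and Junb goes from 0 covered bases with vehicle to 1653 with TGFβ.

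Around the genes, regions were spread unevenly. Fosb had 7 regions with vehicle, 8 with TGFβ and 9 at 10 min, and Fosl1 had 6, 6 and 7. Junb followed with 3, 5 and 6. Jund had 1, 2 and 3 regions, Fos had 2 in every list, Jun and Atf3 each had 1, 2 and 1, Fosl2 had 1 in every list, and Batf had 0, 1 and 1. As few as 0.582% of all genes had at least as many regions as Fosb with vehicle, 2.65% with TGFβ and 0.523% at 10 min, and the shares for Fosl1 were 1.23%, 6.69% and 1.70%. The means over the 9 genes were 2.44, 3.22 and 3.44 regions, against 1.28, 2.17 and 1.73 over all genes, while the medians were 1.00, 2.00 and 2.00 against 1.00, 2.00 and 1.00. The high means thus rested on Fosb, Fosl1 and Junb, and other genes lie in those loci: Rtn2 near Fosb, Ccdc85b, Ctsw, Efemp2 and Fibp near Fosl1, and Hook2, Prdx2 and Rnaseh2a near Junb.

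Put together, the regions of the 3 lists marked 34 separate sites, of which 18 were distal and 16 lay at a TSS of any gene. Joined sites were not counted over the whole lists, so these counts have no share over all sites beside them. Of the 34 sites, 22 were called in all lists. They include the site at the Junb start, from -2660 to 652, where the vehicle list had a retained upstream interval and none over the start. Of the other sites, 3 were called in the TGFβ list alone, 4 in the TGFβ and 10 min lists, 1 in the vehicle and 10 min lists and 4 in the 10 min list alone. All 3 sites of the TGFβ list alone were distal. Most such regions are distal in the whole list as well, where 17829 of the 20184 TGFβ regions without a vehicle region were distal.

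**Figure D3:**
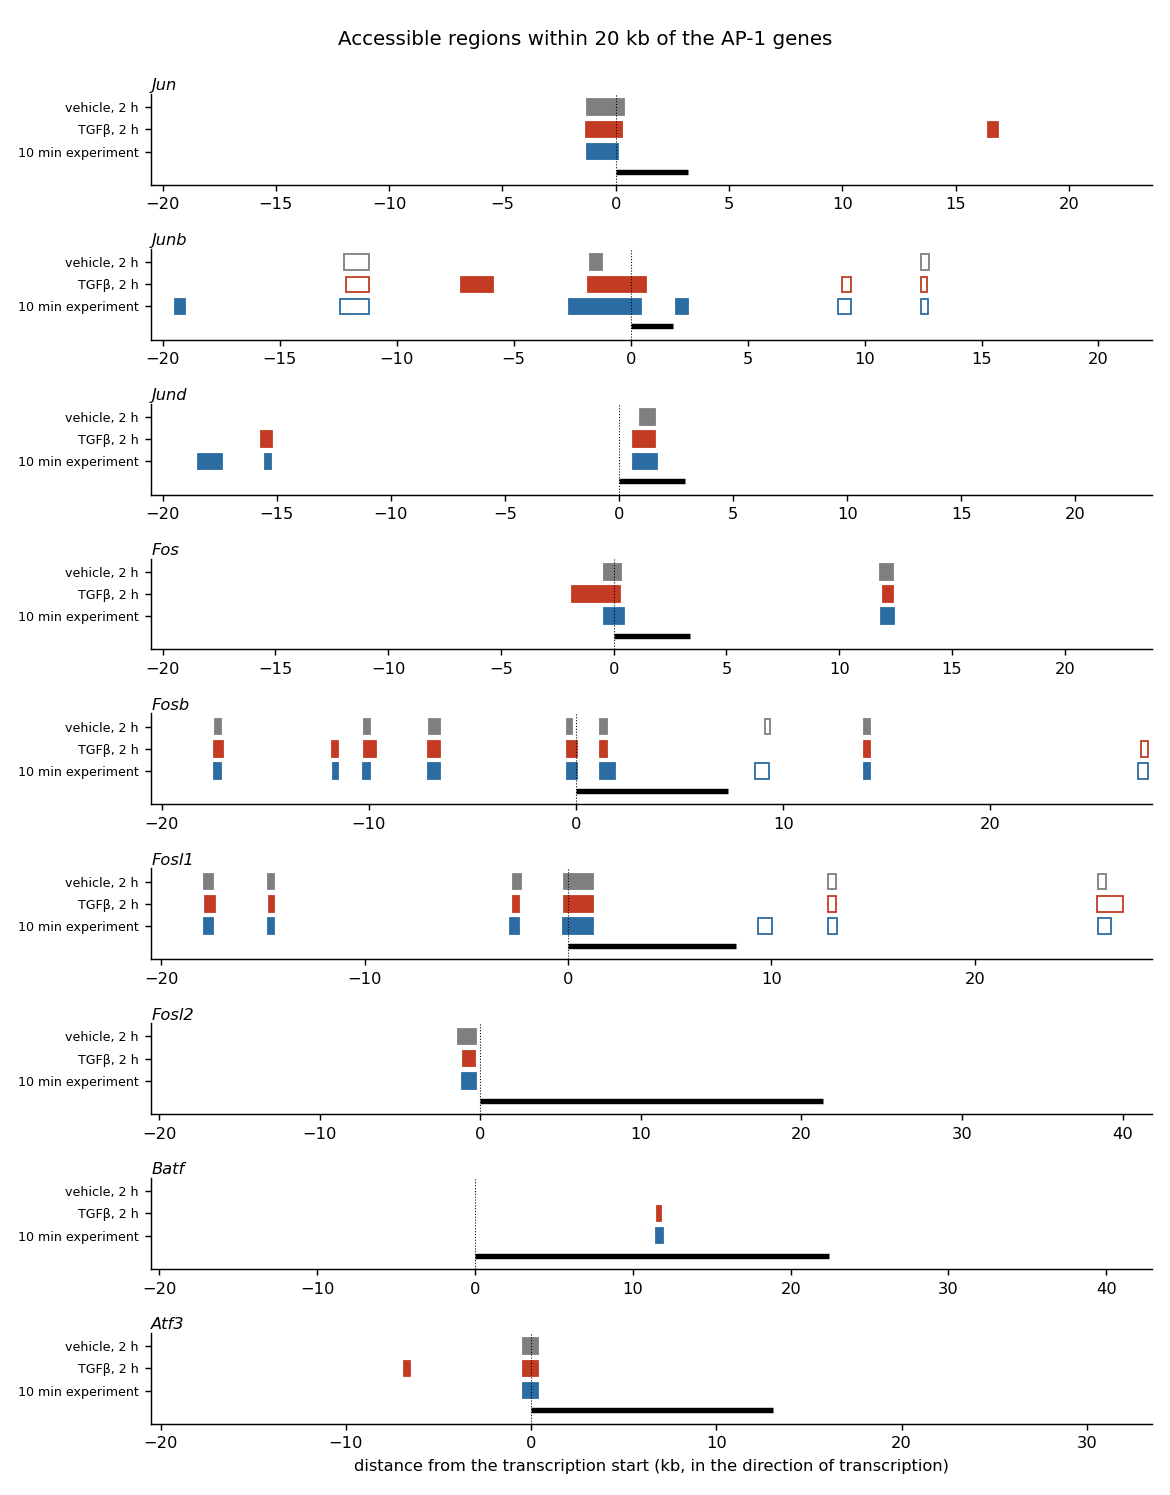
Regions within 20 kb of each AP-1 gene in the vehicle (grey), TGFβ (red) and 10 min (blue) lists, against the distance from the annotated start in kb in the direction of transcription, with the gene body as a black line. Open boxes are regions at the TSS of another gene. Red bars with no grey bar above them stand near Jun (16.6 kb), Junb (-6.57 kb), Jund (-15.4 kb), Fosb (-11.6 kb), Batf (11.7 kb) and Atf3 (-6.71 kb).

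To examine what TGFβ added in complete medium, the TGFβ regions were set against the vehicle list. AP-1 loci had 29 regions with TGFβ and 22 with vehicle, a ratio of 1.32 (exact 95% interval 0.731 to 2.41), against 1.96 (1.93 to 2.00) over all regions. Away from the starts of any gene the ratio was 15 to 10, or 1.50 (0.630 to 3.73), against 2.55. At starts, whether of AP-1 genes or of other genes in their loci, it was 14 to 12, or 1.17 (0.501 to 2.76), against 1.24. These member ratios all have intervals that include 1 and also the ratio over all regions. The intervals treat the counts as independent, although the lists share most positions, with 1 of 22 vehicle regions lacking a TGFβ region. They therefore cannot decide whether the numbers differ at AP-1 loci. When the TGFβ list was cut at its top scores to equal the vehicle list in length, the ratio turned to 0.864. The loci of the 22 other basic leucine zipper genes had 65 regions with TGFβ and 49 with vehicle. Those of the 15 genes of upstream kinases and of serum response factor and its partners had 46 and 29.

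TGFβ regions with no vehicle region under them were fewer at AP-1 loci than in the whole list. They were 7 of 29 (24.1%, 12.2 to 42.1), against 52.4% of all TGFβ regions. Among distal regions they were 6 of 15 (40.0%, 19.8 to 64.3), against 64.6%. Among regions at a TSS of any gene they were 1 of 14 (7.14%, 1.27 to 31.5), against 21.5%. The interval reached the share over all regions at starts and fell just short of it at distal sites. The gap was narrower under other settings. With overlapping or touching intervals merged only, the share was 34.2% (21.2 to 50.1) against 53.9%, and with no minimum width 31.2% (18.0 to 48.6) against 54.9%. With a gap under 1000 bp counted as overlap it was 24.1% (12.2 to 42.1) against 51.9%. In these settings the interval stayed below the share over all regions. With the centre of a region required to lie in a vehicle region the share was 41.4% (25.5 to 59.3) against 57.6% of all TGFβ regions, with peaks below the median score left out 38.9% (20.3 to 61.4) against 51.9%, and with a minimum width of 300 bp 36.4% (19.7 to 57.0) against 47.0%, and in each the interval included the share over all regions. With the TGFβ list cut to equal length it was 5.26% (0.935 to 24.6) against 23.8%. In the counts of 7 of 29 and 1 of 14, the TGFβ region at the Junb start passed as overlapping a vehicle region. It did so through its upstream interval alone, as no vehicle interval lay over that start.

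The 6 distal regions of this kind lay near 6 different members. They were centred 16.6 kb downstream of the start of Jun (score 693), at -6.57 kb from Junb (843), at -15.4 kb from Jund (1000), at -11.6 kb from Fosb (780), at 11.7 kb from Batf (574) and at -6.71 kb from Atf3 (803). The Junb region was the widest of them, at 1364 bp, and the Fosb region the narrowest, at 179 bp. By annotation the Jun region lay in an intron of Gm12703, the Batf region in an intron of Batf itself, and the others between genes. The GC content was 45.2% at the Jun site, 45.8% at Atf3, 50.8% at Fosb, 58.2% at Jund, 59.5% at Junb and 69.0% at Batf. The single region of this kind at a start lay 9.23 kb downstream of the Junb start, at the starts of Prdx2 and Rnaseh2a. At Fosl1, Fosl2 and Fos every TGFβ region overlapped a vehicle region.

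The AP-1 sequence was found in 5 of these 6 distal regions (83.3%, 43.6 to 97.0), in all but that of Batf. Within 200 bp of the centre the same search found it in 39.2% of all distal TGFβ regions without a vehicle region, and anywhere in the region in 40.5%. Among the distal TGFβ regions at AP-1 loci that did have a vehicle region it was found in 3 of 9 (33.3%, 12.1 to 64.6), against 44.8% of all such regions. The member intervals of the groups with and without a vehicle region overlap each other. The search covered TGACTCA and its reverse complement TGAGTCA. A match describes the sequence and does not show binding. The matches are shown in capitals on the strand of the nearby gene, as they lie in distal TGFβ regions that overlapped no vehicle region:
Jun, chr4:94702334-94702434, minus strand: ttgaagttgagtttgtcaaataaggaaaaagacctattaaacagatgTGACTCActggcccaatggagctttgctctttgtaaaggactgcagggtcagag
Junb, chr8:87509546-87509666, minus strand: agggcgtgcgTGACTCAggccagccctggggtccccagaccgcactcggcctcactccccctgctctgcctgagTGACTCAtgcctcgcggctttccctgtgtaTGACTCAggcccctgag
Jund, chr8:73206183-73206283, plus strand: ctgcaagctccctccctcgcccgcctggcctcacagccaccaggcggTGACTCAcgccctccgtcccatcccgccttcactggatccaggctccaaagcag
Fosb, chr7:19906974-19907074, minus strand: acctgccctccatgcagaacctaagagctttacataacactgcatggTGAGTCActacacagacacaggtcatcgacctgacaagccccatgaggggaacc
Atf3, chr1:193013880-193013980, minus strand: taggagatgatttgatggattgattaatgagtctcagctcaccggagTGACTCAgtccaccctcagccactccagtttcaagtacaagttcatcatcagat

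The Junb region at -6.57 kb held 4 AP-1 matches, of which the 3 in the printed stretch lay at -7039, -6975 and -6945 and the other at -6631. At 1364 bp the region was wide, the median TGFβ region measuring 379 bp, and a wider region has room for more matches. This region was called in the TGFβ list alone and was absent from the 10 min list. It also held 3 matches to the SMAD sequences GTCTAGAC or CAGACA, at -6561, -6053 and -6020.

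In the other direction, 1 of 22 vehicle regions at AP-1 loci had no TGFβ region over it (4.55%, 0.807 to 21.8), against 6.44% of all vehicle regions. This was a region of 151 bp with a score of 574 near Fosb, at the start of Gm17589. It spanned 9161 to 9311 from the Fosb start. The TGFβ list had an interval of 149 bp at 8675 to 8823, which did not overlap it and fell under the minimum width of 150 bp. At the other edge of the Fosb locus the TGFβ list had a region at the start of Rtn2 whose vehicle counterpart ended 16 bp outside the locus and was not counted.

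The 10 min list shared most of its regions at AP-1 loci with the lists from complete medium. Of its 31 regions, 23 overlapped a vehicle region (74.2%, 56.8 to 86.3), against 64.1% of all 10 min regions, and 26 overlapped a TGFβ region (83.9%, 67.4 to 92.9), against 85.9%. In 4 of 31 there was neither (12.9%, 5.13 to 28.9), against 12.2%. These shares were near those of the whole list. The regions with neither were centred 2.19 kb downstream of the Junb start (score 642), at -19.3 kb from Junb in an intron of Hook2 (676), at -17.9 kb from Jund (729) and 9.70 kb downstream of the Fosl1 start, at the start of Ccdc85b (640).

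Of the 7 TGFβ regions without a vehicle region, 4 overlapped a 10 min region (57.1%, 25.0 to 84.2), against 31.5% of all such TGFβ regions. They lay at the starts of Prdx2 and Rnaseh2a, at -15.4 kb from Jund, at -11.6 kb from Fosb and in the intron of Batf. The regions near Jun and Atf3 and the Junb region with 4 AP-1 matches had no 10 min region.

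Sequence features of all regions at AP-1 loci were compared with all regions of the same list, within 200 bp of each centre and on both strands. The AP-1 sequence was present in 3 of 22 vehicle regions (13.6%, 4.75 to 33.3), against 27.4% of all vehicle regions, in 9 of 29 TGFβ regions (31.0%, 17.3 to 49.2), against 32.0%, and in 7 of 31 regions at 10 min (22.6%, 11.4 to 39.8), against 27.1%. In each list the interval included the share over all regions. The shares depended on the window. Anywhere in the region they were 22.7%, 34.5% and 29.0% in the vehicle, TGFβ and 10 min lists, and within 500 bp of the centre 27.3%, 37.9% and 29.0%.

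CRE sequences with up to 1 mismatch and CArG boxes were more frequent. Exact TGACGTCA was present in 0 of 22 vehicle regions (0.00%, 0.00 to 14.9), against 2.11% of all vehicle regions. With TGFβ it was present in 1 of 29 regions (3.45%, 0.611 to 17.2), against 1.40%. At 10 min it was present in 1 of 31 (3.23%, 0.572 to 16.2), against 1.68%. For the exact CRE the interval included the share over all regions in each list. TGACGTCA, exact or with 1 mismatch, was present in 12 of 22 vehicle regions (54.5%, 34.7 to 73.1), against 14.8% of all vehicle regions, in 12 of 29 TGFβ regions (41.4%, 25.5 to 59.3), against 14.7%, and in 11 of 31 regions at 10 min (35.5%, 21.1 to 53.1), against 13.0%. The share was also higher away from starts. Among distal TGFβ regions it was 8 of 15 (53.3%, 30.1 to 75.2), against 14.9% of all distal TGFβ regions. Several of these lay in the Fosb locus, at 1.33, -6.86, -9.94 and -17.2 kb, and the others near Jun, Fos, Fosl1 and Atf3. Among TGFβ regions at a TSS of any gene it was 4 of 14 (28.6%, 11.7 to 54.6), against 14.1%. The CArG box, the site of serum response factor, was present in 4 of 22 vehicle regions (18.2%, 7.31 to 38.5), against 1.80%. It was present in 3 of 29 TGFβ regions (10.3%, 3.58 to 26.4), against 1.92%. At 10 min it was present in 4 of 31 regions (12.9%, 5.13 to 28.9), against 1.72%. Among distal TGFβ regions the box was in 1 of 15 (6.67%, 1.19 to 29.8), against 2.19%. Among TGFβ regions at a TSS of any gene it was in 2 of 14 (14.3%, 4.01 to 39.9), against 1.26%. For the CRE with up to 1 mismatch and the CArG box, the lower bounds over all regions at AP-1 loci stood above the whole-list share in the 3 lists. For this CRE at TSS regions with TGFβ, and for the CArG box at distal regions with TGFβ, the interval included the share. Neighbouring regions are not independent. AP-1 and CRE matches did not overlap each other.

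**Figure D4:**
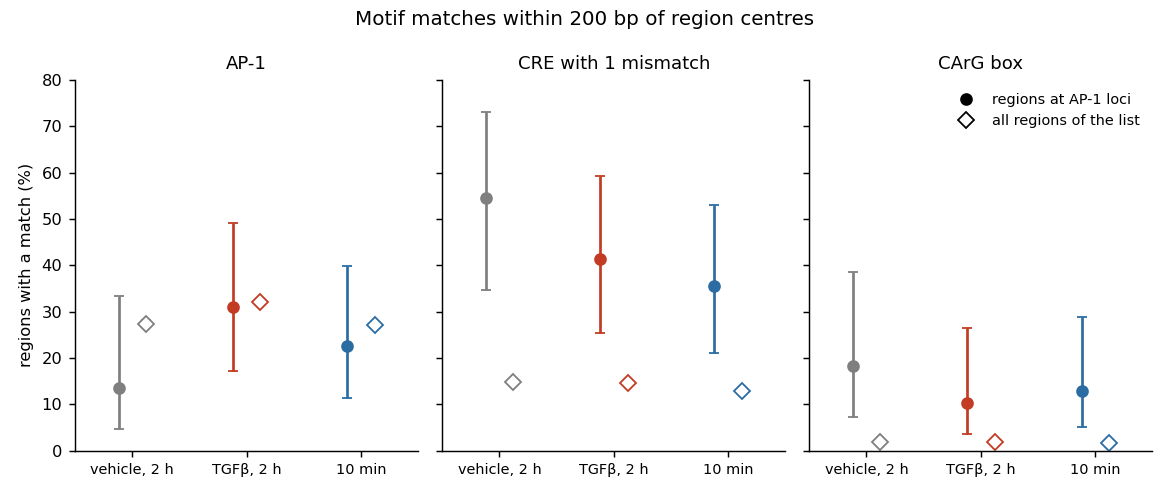
Percent of regions with a match to the AP-1 sequence, the CRE with up to 1 mismatch and the CArG box within 200 bp of the region centre in the vehicle, TGFβ and 10 min lists. Circles with 95% Wilson intervals are regions at AP-1 loci and diamonds are all regions of the list. Circles stand above the diamonds for CRE (54.5%, 41.4% and 35.5%) and CArG box, and near or below them for AP-1.

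CArG boxes anywhere inside regions lay at the loci of Fos, Fosb and Junb, and not all of them are in the counts above. At Fos a box lay at -309 to -300 before the start and another at 12224 to 12233 in a region downstream of the gene. That downstream region, centred between 12.1 and 12.2 kb from the start, had a score of 1000 in every list and the same search found a CRE with 1 mismatch beside the box, at 12196 to 12203. At Fosb the box lay at -272 to -263, inside the interval of every list. At Junb a box lay at -1450 to -1441, inside the upstream interval of every list, another at -11675 to -11666 in the region at the start of Hook2, and a further one at 2085 to 2094 in the region of the 10 min list alone. The box before the Fos start lay farther than 200 bp from the region centre in every list and was not counted. The Junb box at -1450 was counted in the vehicle list alone, since the region centres lay elsewhere in the other lists. Boxes near the genes are shown in capitals, as all but the last were accessible in every list:
Fos, chr12:86814511-86814560, plus strand: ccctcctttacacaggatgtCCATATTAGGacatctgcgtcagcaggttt
Fos, downstream, chr12:86827044-86827093, plus strand: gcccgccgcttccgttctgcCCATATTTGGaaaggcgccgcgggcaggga
Fosb, chr7:19895637-19895686, minus strand: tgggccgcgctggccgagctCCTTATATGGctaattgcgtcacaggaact
Junb, upstream, chr8:87504038-87504087, minus strand: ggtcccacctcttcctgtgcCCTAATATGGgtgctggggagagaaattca
Junb, downstream, chr8:87500503-87500552, minus strand: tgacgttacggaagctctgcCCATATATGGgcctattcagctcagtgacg

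SMAD sequences and the ETS sequence ACCGGAAGT, with 1 mismatch allowed, were near the shares of all regions. SMAD sequences were present in 27.3%, 31.0% and 22.6% of vehicle, TGFβ and 10 min regions at AP-1 loci, against 28.6%, 35.0% and 28.9%. ETS sequences were present in 9.09%, 10.3% and 6.45%, against 11.4%, 8.61% and 9.89%. In the 300 bp before the starts of the 9 genes, whether accessible or not, no AP-1 match was found, against 4.48% of all protein-coding genes. A CRE with up to 1 mismatch was found before 2 starts (22.2%, 6.32 to 54.7), those of Jun and Fos, against 11.7%, and a CArG box before that of Fosb, against 1.60%. The box of Fos lay just beyond this length.

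Genes related to AP-1 were examined by the same rule. Of 22 other basic leucine zipper genes, which encode among others the CREB, MAF and NRF factors, 18 had a TSS region in each list (81.8%, 61.5 to 92.7). The shares over all genes were 41.0%, 47.6% and 46.3% with vehicle, with TGFβ and at 10 min. For none of the 22 did the call differ between lists. Regions at their loci numbered 49 with vehicle, 65 with TGFβ and 53 at 10 min. Of 15 genes of the kinases upstream of AP-1 and of serum response factor and its ternary complex partners, 13 had a TSS region with vehicle (86.7%, 62.1 to 96.3) and 14 with TGFβ and at 10 min (93.3%, 70.2 to 98.8). The call that differed was that of Elk3, a ternary complex factor gene, which had no TSS region with vehicle and had one with TGFβ and at 10 min, as Junb did. The locus of Elk3 had 1 region with vehicle, 6 with TGFβ and 3 at 10 min.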

How the data were processed

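ATAC-seq peak lists of NMuMG cells were used. The authors trimmed, aligned and filtered reads with the ENCODE ATAC-seq pipeline on mouse build mm9, called peaks with MACS2 (version 2.1.2 in the submitters' processing notes) and retained peaks by the irreproducible discovery rate (IDR). The methods speak of replicates behind the IDR, whereas the labels give 1 sample per condition and 1 list was analysed for each condition in complete medium. A list has 1 line per summit. The score in the deposited lists is the authors' scaled IDR, from 540 to a cap of 1000, which at its lowest equals an IDR of 0.0501. Scores were ranked within lists only. The share of regions at the cap was 38.2% in the vehicle list, 41.4% with TGFβ and 29.9% at 10 min. For the sample given TGFβ for 10 min, 1 field of the labels gives the time of the other experiment, and its title was followed. Which libraries the 10 min list was called from was not settled, so no comparison of vehicle with TGFβ was made at 10 min.

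As in the study's methods, intervals under 150 bp were left out and gaps under 1000 bp were merged. The score of a region was the highest among its peaks. Regions overlapping by at least 1 bp were shared. A region lay at a TSS when it overlapped the start of any GENCODE vM1 transcript ± 1000 bp, and was distal otherwise. All intervals lay inside the NCBIM37 (mm9) chromosomes. The study used another gene catalogue for its promoters. Cover of the start window was counted from regions, gaps included, and it and all positions refer to the first coding start of each gene. Python 3.11.15, pysam 0.24.0, SciPy 1.17.1 and matplotlib 3.10.9 were used. Shares carry 95% Wilson intervals and ratios of counts exact conditional binomial intervals. Both cover the counting of regions alone. The code was tested on simulated intervals and sequences.

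The members and gene lists were chosen with earlier results of these data known. All 9 members were named, with every region at a member start, every region missing from the vehicle or TGFβ list and, of related genes, those whose TSS call differed. Markers of cell types were named as a check. Alternatives changed the merging, the minimum width, the score, the windows, the flanks, the overlap rule and the transcripts, and cut the TGFβ list to equal the vehicle list. The count of start bases inside an interval, the AP-1 search over whole regions and the cover without gaps were added after seeing the data.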

Additional observations from a re-analysis of the deposited data

How the results depend on the processing

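Of 111 values recomputed for 22 results under alternative settings, 100 stayed within the counting interval of the original value or within 1.5 times the original count, and 11 moved. These bounds are wide, so staying inside them does not show that a value is stable. A ratio of 0.864 in place of 1.32, and 5 genes with a vehicle TSS region in place of 7, both stayed inside. With peaks below the median score of their list left out, AP-1 loci had 11 vehicle, 18 TGFβ and 18 regions at 10 min. With a flank of 10 kb they had 19 TGFβ regions and 20 at 10 min, and 10.0% of the 10 min regions held an AP-1 match. With a flank of 50 kb they had 42, 62 and 55 regions. These settings hold fewer peaks or shorter or longer loci by construction. With the TGFβ list cut to equal the vehicle list, 19 TGFβ regions remained at AP-1 loci and 5.26% of them had no vehicle region, against 23.8% of all regions of the shortened list. The ratio of TGFβ to vehicle regions ranged from 0.864, in that shortened list, to 1.64, with peaks below the median score left out, and the share of TGFβ regions without a vehicle region ranged from 21.1% to 41.4% under the other settings. The number of genes with a TSS region did not move beyond these bounds, but single calls of Junb, Fos, Fosb and Fosl2 did change, as given with each gene. No paired analysis was possible because the lists, 1 for each condition, hold no replicates. With 1 list per condition and no read counts in the lists, differences between lists cannot be separated from differences between libraries.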
